A study of Saccharomyces cerevisiae with 50 samples.

Results

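The 56 genes described here encode the proteins of the small subunit of the cytosolic ribosome of budding yeast (Saccharomyces cerevisiae), from RPS0A to RPS31. They were found in the deposited table by their systematic names, 56 of 6205 open reading frames. They form 24 pairs of gene copies and 8 single-copy genes. The strain lacks YOX1, which encodes a homeodomain repressor of genes expressed around the M/G1 transition. A culture was held in G1 by the mating pheromone alpha factor, released into the rich medium YEPD and sampled at 25 times, 5 min apart, from 0 to 120 min. Each sample was labelled with Cy5 and hybridised on 2 arrays; the Cy3 channel held RNA from wild-type cells growing asynchronously in YEPD. All 50 arrays thus share the deletion in the sample channel and the same kind of reference in the other. The design text calls the repeated arrays technical, so the data are taken as 1 time course of 1 strain, with no synchronised wild-type cells beside it.

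The small subunit binds messenger RNA and decodes it, and it carries the first amino acid's transfer RNA to the start codon. Its head and body can turn against each other, and the mRNA runs through the channel between them. Most yeast ribosomal protein genes exist as pairs left from an ancient duplication of the whole genome, and the copies of a pair encode the same or nearly the same protein. Their transcription is driven by Rap1 together with Fhl1, Ifh1 and Sfp1 and follows growth signals through the TOR and protein kinase A pathways. Ribosomal protein mRNAs are among the most abundant of a growing yeast cell, so a ratio near 0 on the log2 scale is a comparison of 2 high levels.

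Values are log2 ratios, sample over reference, and the median of each array was set to 0. The base of the deposited values (log10) and the direction (Cy5 over Cy3) are inferred, not stated, and every size below depends on them. The YOX1 probe, which checks the labels, lay below the reference on all 49 arrays that measured it, from -2.25 to -0.02 with a median of -1.08. FUS1, a pheromone-induced gene of cell fusion, stood at 3.67 and 3.96 on the arrays of 0 min and between -1.62 and -0.04 from 20 min on. By their titles the arrays form 2 sets, each a complete course. In array set 2, the titles of 0, 5 and 15 min carry the letter M, which no label explains, and whether a second culture was used there is not stated. Arrays hybridised with the samples of 25, 40 and 55 min had an SD over all genes of 0.744 to 1.23, against 0.333 to 0.828 elsewhere; that of 55 min in array set 2 lies within the range of the others. Over the small subunit genes it ran from 0.545 to 1.18 on these 6 arrays and from 0.125 to 0.485 on the other 44. Results are therefore given with all 25 time points and with the 22 that remain without these 3. RNA of a whole culture cannot tell a change in the share of cells that express a gene from a change in the RNA per cell. A probe may also read both copies of a near-identical pair, and the probe sequences were not used here.

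Of the 56 genes, 55 were measured at 20 or more time points and tested. The exception was RPS21A, which had values on 11 of 50 arrays, all in array set 2, from -0.54 to 3.68 with a median of -0.03. Its highest value came from the array of 25 min. RPS16A was measured on 40 arrays.

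The small subunit genes followed similar courses of small amplitude, and their median was higher in 2 windows than between them when 25, 40 and 55 min are set aside. From 0 to 15 min the median over genes averaged 0.24 ± 0.06 (SD, n = 4 time points). From 20 to 50 min, without 25 and 40 min, it averaged 0.026 ± 0.057 (SD, n = 5 time points). It was higher again from 60 to 85 min, at 0.21 ± 0.03 (SD, n = 6 time points), and lower from 90 to 120 min, at 0.06 ± 0.03 (SD, n = 7 time points). These windows were chosen after the course was seen and carry no test. Gene by gene, 52 of 55 had a higher mean from 60 to 85 min than in both neighbouring windows. In array set 1 alone this held for 52 of 55, and in array set 2 alone for 38 of 55. The windows largely follow the dates in the array titles: in both sets, 20 to 50 min and 60 to 85 min lie on different title dates, so a change between them cannot be told apart from the date. Dates differ least for 60 to 85 min against 90 to 120 min, where all arrays but that of 120 min in array set 1 share a date within a set. There 54 of 55 genes were higher in the earlier window in array set 1 and 43 in array set 2. In array set 1, 0 to 15 min and 20 to 50 min share a date, and 50 of 55 genes were higher in the earlier window. These counts carry no test either, because the windows were drawn on the median of the same genes. The share of all genes was not counted. The median of the 81 large subunit genes followed nearly the same path, with 0.24 at 0 min, -0.020 at 35 min, 0.22 at 70 min and -0.00056 at 100 min. At the same times the small subunit median was 0.25, 0.0060, 0.24 and 0.023. Between the array sets, the course of a gene had a median r of 0.764 over 25 time points and 0.428 over 22, with the highest at 0.82 for RPS18B.

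**Figure D1:**
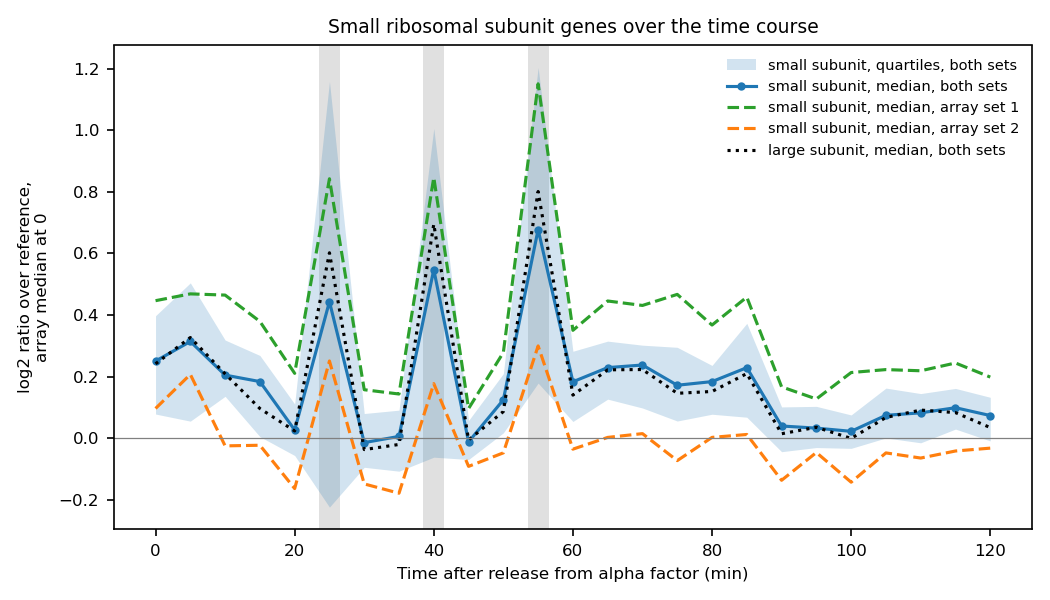
Median log2 ratio over the reference of the small subunit genes (line with points), with quartiles (band), the median in each array set (dashed) and the median of the large subunit genes (dotted), against minutes after release from alpha factor. Grey bars mark 25, 40 and 55 min, where the median reached 0.44, 0.55 and 0.68; array set 1 lies above array set 2 at every time point.

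Against the reference, the small subunit genes lay close to 0, and 1 of them stood out. Over 25 time points the 55 means ran from -0.55 to 0.81 with a median of 0.18, while the median over all 6063 genes tested was -0.00020. Means were above 0 for 42 of the 55. RPS28B (YLR264W), a copy of the gene for a small protein of the head near the mRNA exit, was the only one whose mean exceeded a fold change of 1.5 (limma treat, adjusted p under 0.01). Among all genes 2.08% were called above the reference by this rule and 3.6% below it. None of the 55 was called below the reference, and none had an unadjusted p under 0.05 in that direction (limma treat). Over the other 22 time points RPS28B was again the only one called above, against 2.31% of all genes, and 0 of 55 were called below, against 3.83%, with 0 at an unadjusted p under 0.05 (limma treat).

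RPS28B is known for feedback control: its protein binds the 3′ end of its own mRNA and, with the decapping activator Edc3, speeds its decay. Its ratio in array set 1 ran from 0.60 to 1.55 with a median of 1.01, and in array set 2 from -0.22 to 0.87 with a median of 0.66. The mean of 0.81 ± 0.03 (SE, 25 time points) is a 1.76-fold higher level than in the reference, with a limma treat adjusted p of 3.01e-06. In array set 2 alone the mean was 0.59 and the call was lost. The other copy, RPS28A, had a mean of 0.33 ± 0.06 (SE). By the dates in the array titles, RPS28B averaged 1.05, 1.02, 0.757, 0.400 and 0.663 in the 5 groups of arrays, of which the first 2 belong to array set 1.

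After RPS28B the highest means were those of RPS29B, RPS30B and RPS21B. RPS29B, which encodes a zinc-binding protein of the head, had a mean of 0.45 ± 0.11 (SE), RPS30B 0.44 ± 0.08 and RPS21B 0.42 ± 0.08. Without 25, 40 and 55 min these means were 0.25, 0.30 and 0.27. Among the lowest means were RPS0B at -0.55 ± 0.18 (SE), RPS4B at -0.16 ± 0.08 and RPS4A at -0.15 ± 0.08. Rps0 is a homologue of the mammalian laminin receptor protein and is needed for the last steps of 40S maturation. Without the 3 time points RPS0B stood at -0.23 ± 0.07 (SE) and the copies RPS4A and RPS4B at 0.016 and -0.0063. Over these 22 time points the 55 means ran from -0.23 to 0.85 with a median of 0.12, and 46 were above 0.

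The 2 array sets disagreed on the level of this family. Over the other 22 time points, 53 of 55 genes had a higher mean in array set 1 than in array set 2, by a median of 0.37 and over a range of -0.08 to 0.73. Their mean was above 0 for 53 genes in array set 1 and for 13 in array set 2. All genes together showed no such shift, with 50.5% higher in array set 1 and a median difference of 0.0036. The large subunit genes did, with 77 of 81 higher in array set 1 and a median difference of 0.34. The same split appears by title date: the median over small subunit genes was 0.24 and 0.30 in the 2 groups of array set 1, and 0.10, -0.15 and -0.04 in the 3 groups of array set 2. Single genes show the same split. RPS7A averaged 0.75 ± 0.46 (SD, n = 25 arrays) in array set 1 and -0.048 ± 0.29 (SD, n = 25 arrays) in array set 2, and RPS3 averaged 0.56 ± 0.26 (SD, n = 24 arrays) and -0.061 ± 0.16 (SD, n = 25 arrays). What sets the arrays apart was not tested, and a mean above the reference is not shown for the family as a whole.

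Periodic change was tested with a cosine and a sine term at a period of 71 min, beside a linear term in time. The period came from 59 cell cycle marker genes, none of them ribosomal. Over 25 time points 3 of 55 genes were called periodic (limma F-test, adjusted p under 0.01), against 13.3% of all genes tested. RPS3 (YNL178W), whose protein lines the mRNA entry of the subunit, had the largest wave of the 3, with a peak-to-trough size of 0.41 ± 0.08 (SE), a fitted peak at 69.7 min and an adjusted p of 0.00138. RPS14B reached 0.34 ± 0.08 (SE) with a peak at 70.0 min and an adjusted p of 0.00682. Its splicing is known to be repressed by its own protein. RPS6B, a copy of the gene for a protein phosphorylated in response to TOR signalling, had 0.35 ± 0.08 (SE), a peak at 68.6 min and an adjusted p of 0.00802. None of the 3 calls was made from array set 2 alone, only RPS3 remained with array set as a factor, none remained with title date as a factor, and leaving out single time points left between 1 and 4 calls. The count was 1 without 0, 30, 40, 45, 50, 60 or 65 min.

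Without 25, 40 and 55 min, 16 of 55 genes were called periodic, against 25.2% of all genes tested (limma, adjusted p under 0.01). RPS27A had the largest wave, 0.41 ± 0.09 (SE), followed by RPS22B with 0.40 ± 0.09, RPS3 with 0.39 ± 0.06, RPS7A with 0.37 ± 0.09, RPS21B with 0.36 ± 0.06 and RPS30A with 0.34 ± 0.08. Rps27 is a zinc-finger protein of the body, and Rps30 is made as a fusion with a ubiquitin-like protein in mammals. RPS27A averaged 0.22 from 0 to 15 min, -0.057 from 20 to 50 min, 0.26 from 60 to 85 min and 0.11 from 90 to 120 min. In the same windows RPS22B averaged 0.27, -0.19, 0.15 and 0.025, and RPS21B 0.49, 0.19, 0.39 and 0.087. The remaining 10 had waves of 0.23 to 0.34 and included RPS27B, RPS26B, RPS22A, RPS13, RPS6B, RPS24A, RPS24B and RPS15. The 16 peaks lay close together, around a circular mean of 69.1 min. Counted from a multiple of the period, the earliest fell at -7.22 min and the latest at 4.18 min. RPS6B and RPS3 were called in both fits, and RPS14B was lost with an adjusted p of 0.0112.

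The calls depended on the array set. Without the 3 time points, 13 genes were called in array set 1 (20.8% of all genes) and 2, RPS22B and RPS13, in array set 2 (17.5% of all genes). None of the 55 was called in both sets, against 11.9% of all genes tested in both, and the difference between the sets was not tested. RPS3 had a wave of 0.58 with a peak at 70.9 min in array set 1 and 0.20 with a peak at 69.9 min in array set 2. RPS27A had 0.42 and 0.40, with peaks at 65.1 and 64.6 min, and an adjusted p of 0.0352 in array set 2 (limma). Over all 55 genes the median wave was 0.27, against 0.28 for all genes tested. With all 25 time points the medians were 0.25 and 0.30. When trend and wave were tested together by limma, 4 of 55 genes were called, against 23.3% of all genes, and 21 without the 3 time points, against 41.5%.

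With all 25 time points, no small subunit gene passed the test of a linear trend over the 120 min of the course. By limma over 25 time points, 0 of 55 were called rising, against 5.24% of all genes, and 0 falling, against 6.02%; 10 and 7 had an unadjusted p under 0.05. Without 25, 40 and 55 min, 2 genes, among them RPS24A, were called rising, against 8.08% of all genes, and 0 of 55 falling, against 8.43%, with 3 at an unadjusted p under 0.05 (limma). RPS24A changed by 0.37 ± 0.08 (SE, limma adjusted p = 0.00156) from start to end of the course. In the mean of both sets RPS24A was low early, at -0.21 from 0 to 15 min, and stood at 0.10 from 60 to 85 min and -0.046 from 90 to 120 min. The low early values came from array set 2, with -0.61, -0.41, -0.19 and -0.59 at 0, 5, 10 and 15 min. Array set 1 gave 0.08, -0.15, 0.21 and -0.02 at these times. In array set 2 the samples of 0, 5 and 15 min have a title date of their own, so their low values cannot be told apart from the date. In array set 2 alone, without the 3 time points, 5 genes were called rising, RPS24A, RPS13 and RPS14B among them, against 10% of all genes.

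To ask whether the first samples after pheromone differ from later cycle stages, 0, 5 and 10 min were given a term of their own. None of the 55 genes departed from the fitted cycle in these samples by limma, against 1.32% of all genes called above and 1.29% called below; 1 and 0 had an unadjusted p under 0.05. None was called over the other 22 time points either, against 3.64% above and 4.06% below, with 11 and 1 at an unadjusted p under 0.05 (limma). RPS0B (YLR048W) was uneven early in the course. In array set 2 it stood at -1.59, -2.17 and -1.14 at 0, 5 and 15 min, the arrays with the letter M, and at -0.34 at 10 min. In array set 1 it stood at 0.02, -0.87, 0.15 and -0.22 at 0, 5, 10 and 15 min.

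The 3 time points that stand apart split the small subunit genes into those far above and those far below their neighbours in time. The departure of a gene is its value at 25, 40 or 55 min minus the mean of the values 5 min before and after. Because these times were picked for standing apart, the departures carry no test. Averaged over the 3 times, 38 of 55 genes departed upwards and 17 downwards, with a median of 0.56. Among all genes 2990 of 5869 departed upwards, and the median was 0.018. Of 49 genes with all 6 values, 27 lay above their neighbours on all 6 arrays and 8 lay below on all 6. For this agreement in sign the share of all genes was not counted. The departures of the 2 array sets correlated with an r of 0.976 over these 49 genes, which share arrays and reference. The median departure in array set 1 came to 0.73, that in array set 2 to 0.37.

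**Figure D2:**
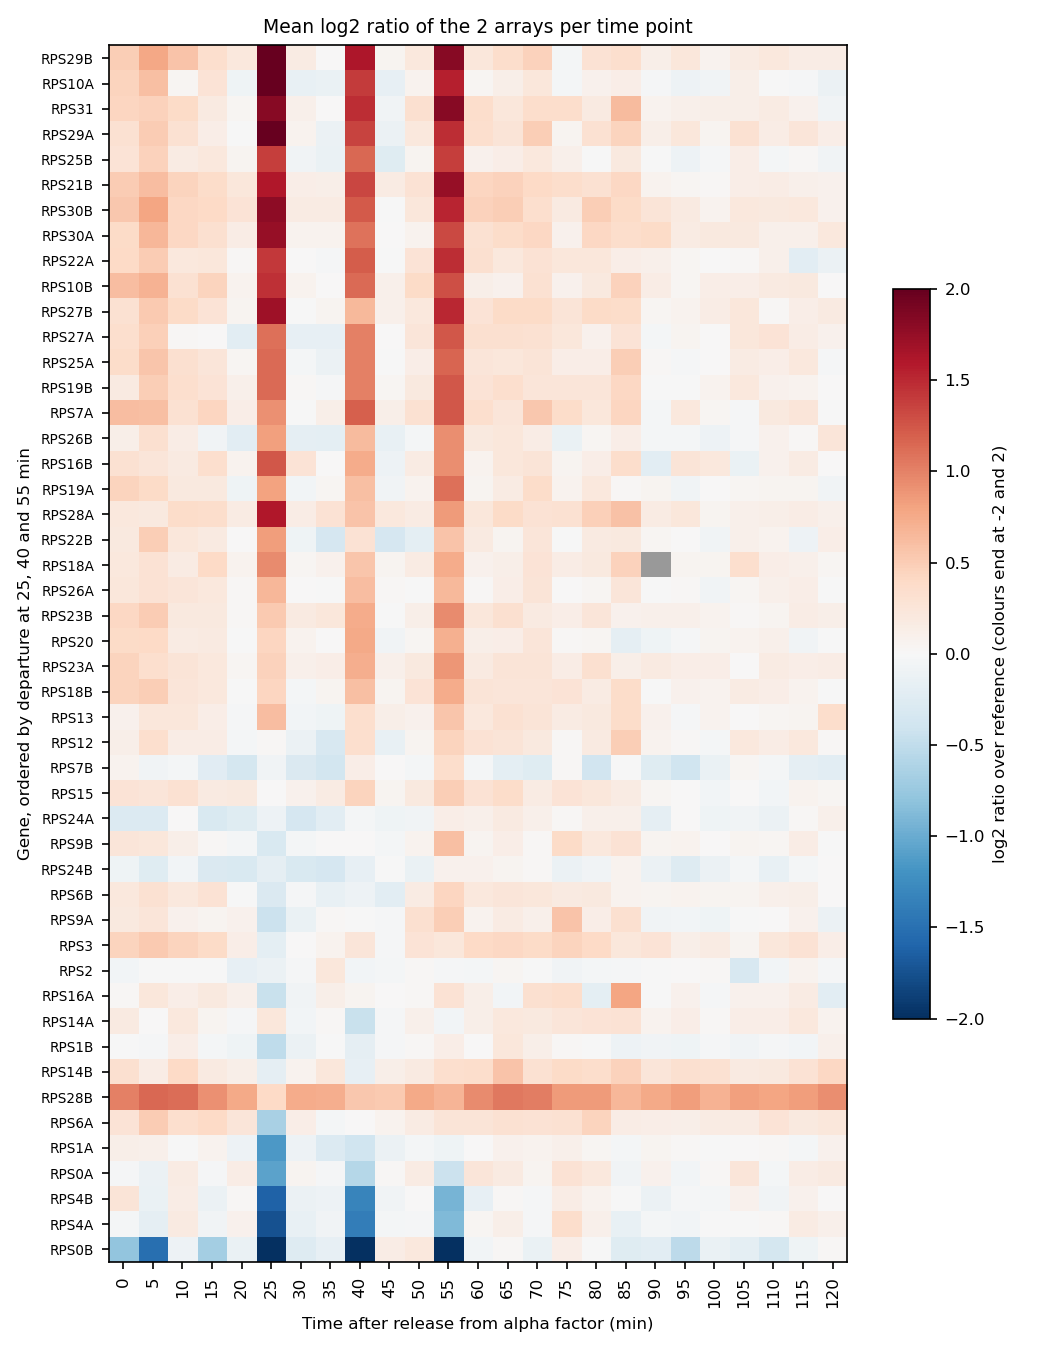
Mean log2 ratio over the reference of the 2 arrays of each time point for 48 of the 55 tested genes (rows, ordered by their departure at 25, 40 and 55 min) against minutes after release; colours end at -2 and 2 and grey marks a missing value. The columns of 25, 40 and 55 min hold the strong colours, and RPS28B is above the reference along the whole row.

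RPS29B (YDL061C), RPS10A, RPS31 and RPS29A lay furthest above their neighbours. RPS29B departed by 2.42, 2.05 and 2.47 at 25, 40 and 55 min in array set 1 and by 1.96, 1.13 and 0.72 in array set 2. Its mean departure was 1.79, ahead of RPS10A with 1.74, RPS31 with 1.58 and RPS29A with 1.56. RPS31 encodes a fusion of ubiquitin with a ribosomal protein, which is cut apart after translation. In all, 14 genes departed by more than 1, among them both copies of RPS10, RPS25, RPS27, RPS29 and RPS30. Over all genes the upper quartile of the departure was 0.42, and the share above 1 was not counted. In array set 2 the departure was largest at 25 min and smallest at 55 min for RPS29B, RPS10A, RPS31 and RPS29A alike.

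Below their neighbours by more than 0.5 were 7 genes, among them RPS0B, RPS4A, RPS4B and RPS0A. The lower quartile over all genes was -0.45, close to this limit, so a departure this low is not particular to the family. RPS0B had the most negative departures, -3.33, -2.98 and -3.12 in array set 1 and -2.95, -2.89 and -2.05 in array set 2. RPS4A departed by -1.31 and RPS4B by -1.21 on average, the 2 copies of a gene for a body protein. RPS0A departed by -0.79. RPS0B was also the gene least like the rest of the family: over the other 22 time points its r with the median of the other members was -0.43. The median r over the 55 genes was 0.73, and the highest 0.92. The large subunit genes departed likewise, 53 of 78 upwards with a median of 0.70. So did those of the mitochondrial small subunit, 21 of 34 upwards with a median of 0.52. Of 51 factors of 40S assembly 28 departed upwards, with a median of 0.12. Upward departures were fewer among translation initiation factors, 3 of 20, and regulators of ribosomal protein genes, 5 of 18.

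**Figure D3:**
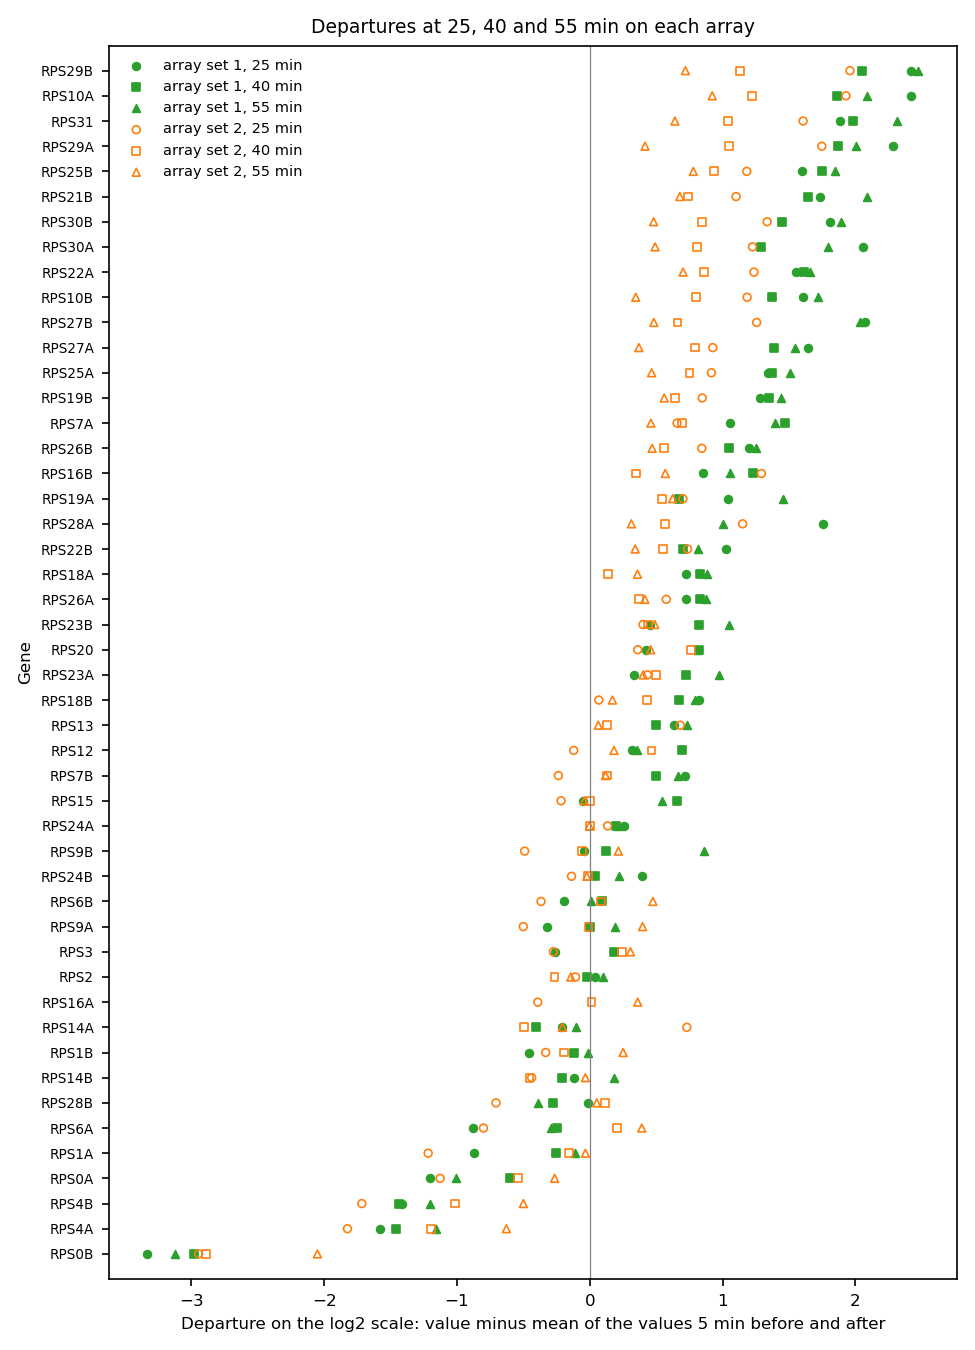
Departure at 25, 40 and 55 min (log2 value minus the mean of the values 5 min before and after) of 48 of the 55 tested genes, with 1 point per array; filled points are array set 1 and open points array set 2. RPS29B lies furthest to the right with a mean of 1.79, and RPS0B furthest to the left with -2.89.

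By place in the subunit, departures were given for head and body proteins apart. This grouping of the proteins was made after the values were seen, so it carries no test. Of 22 genes for head proteins, 18 departed upwards, with a median of 0.76. Of 33 tested genes for body proteins, 20 departed upwards and 13 downwards, with a median of 0.10. Mean ratios had a median of 0.25 for the head and 0.10 for the body. Without the 3 time points, 4 of the 22 head genes and 12 of the 33 body genes were called periodic, against 25.2% of all genes.

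The 8 single-copy genes, spanned the range of the family. RPS2, whose protein lies at the mRNA entry, had the smallest wave of the 8, with a mean of -0.026 ± 0.024 (SE) and a wave of 0.047. RPS3 had a mean of 0.24 ± 0.03 (SE) and the wave given above. RPS12, RPS13 and RPS15, for proteins of the head, the body and the head near the decoding site, had means of 0.12 ± 0.04, 0.17 ± 0.04 and 0.17 ± 0.02 (SE). The shift between the array sets is not part of these SEs. RPS12 averaged 0.31 in array set 1 and -0.065 in array set 2, and RPS13 averaged 0.39 and -0.029. RPS20, whose protein is ubiquitinated on stalled ribosomes, had a mean of 0.14 ± 0.04 (SE). RPS31 had the highest mean of the 8, 0.39 ± 0.10 (SE), which was 0.21 ± 0.03 without the 3 time points. None of the 8 passed the test of the mean against a fold change of 1.5.

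The copies of a pair were compared within each array, as the log2 ratio of copy A minus that of copy B. A constant difference between the probes, such as a dye bias, is part of the mean of this difference but not of its change over time. Over the 23 pairs with both copies tested, the size of the mean difference had a median of 0.09. By limma, 10 pairs (43.5% of the pairs tested) differed in mean at an adjusted p under 0.01, adjusted over all genes and pairs together. Copy A was higher in 4 of them and copy B in 6. For comparison, the mean of 66.7% of all genes differed from 0 by the same rule.

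RPS0A exceeded RPS0B by the widest margin, 0.54 ± 0.13 (SE, limma adjusted p = 5.76e-04), and was higher on 45 of 50 arrays. The difference ran from -0.29 to 2.41 in array set 1 and from -0.10 to 2.47 in array set 2. Its highest values came at 25, 40 and 55 min, and it was also high at 5 min in both sets and at 0 and 15 min in array set 2. Without 25, 40 and 55 min it was 0.31 ± 0.06 (SE). RPS7A (YOR096W), for a protein of the body, exceeded RPS7B by 0.47 ± 0.05 (SE, adjusted p = 1.65e-08) on 47 of 50 arrays, with means of 0.54 ± 0.33 (SD, n = 25 arrays) in array set 1 and 0.40 ± 0.33 (SD, n = 25 arrays) in array set 2. Over the other 22 time points it was 0.40 ± 0.04 (SE).

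RPS28A lay below RPS28B by 0.47 ± 0.08 (SE, limma adjusted p = 1.92e-05) and was higher on 4 of 48 arrays. The difference was -0.60 ± 0.04 (SE) over the other 22 time points. At 25, 40 and 55 min RPS28A departed by 0.81 and RPS28B by -0.20 on average, though RPS28B departed by 0.11 and 0.05 at 40 and 55 min in array set 2. Their courses had the lowest correlation of all pairs, with an r of -0.49 over 25 time points and 0.14 over 22.

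**Figure D4:**
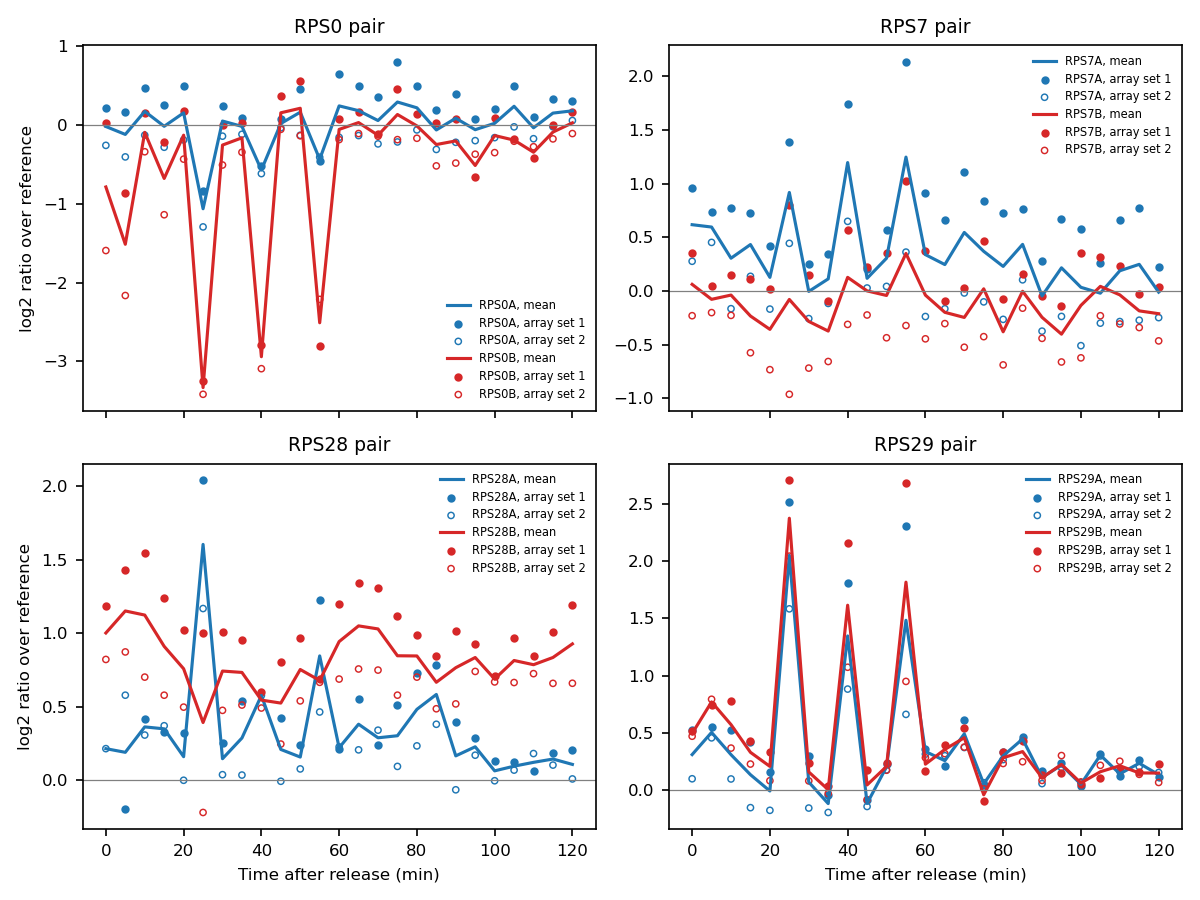
Log2 ratio over the reference of both copies of RPS0, RPS7, RPS28 and RPS29 against minutes after release; lines are means of the 2 arrays, filled points array set 1 and open points array set 2. RPS0A, RPS7A and RPS28B lie above their partners at most times, while the RPS29 copies run together.

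The other called pairs differed by less than 0.2, and several depended on the array set. RPS22A exceeded RPS22B by 0.18 ± 0.05 (SE, limma adjusted p = 8.63e-04), with 0.37 ± 0.37 (SD, n = 23 arrays) in array set 1 and 0.025 ± 0.22 (SD, n = 25 arrays) in array set 2. RPS14A was higher than RPS14B on 5 of 50 arrays, with a mean difference of -0.15 ± 0.03 (SE, limma adjusted p = 8.75e-05). The differences of RPS27, RPS19, RPS6 and RPS29 were -0.11, -0.10, 0.09 and -0.08, and that of RPS19 was 0.076 in array set 2. The RPS6 call was lost in 20 of 27 fits that left out an array set or a time point. Among the smallest differences were those of RPS23 at 0.0098 ± 0.020 (SE) and RPS4 at 0.014 ± 0.025. In 8 of the 23 pairs the mean difference had opposite signs in the 2 array sets. Without 25, 40 and 55 min 10 pairs were called again, 8 of them the same. RPS19 and RPS29 left the list, and RPS10 with -0.17 ± 0.02 (SE) and RPS25 with 0.09 ± 0.02 entered it.

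**Figure D5:**
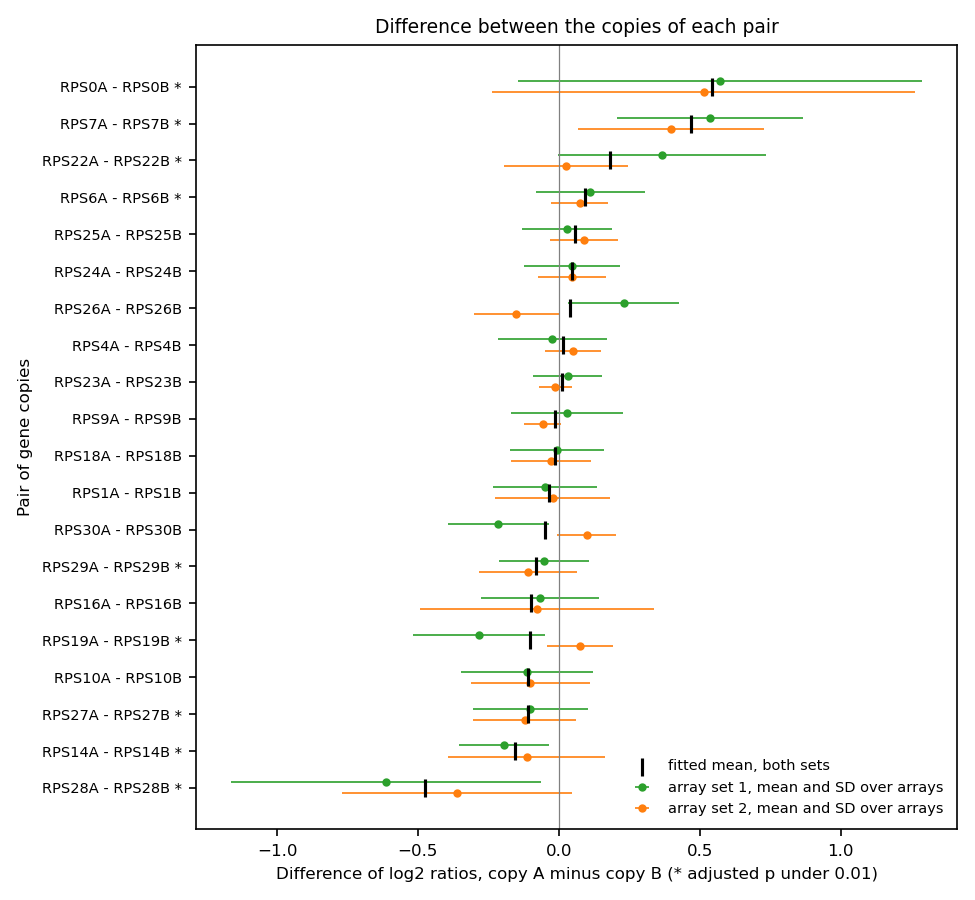
Mean difference of log2 ratios between copy A and copy B of 20 of the 23 pairs, as mean and SD over the arrays of array set 1 (green) and array set 2 (orange) and as the fitted mean of both (black bar); an asterisk marks an adjusted p under 0.01. RPS0, RPS7 and RPS28 differ furthest from 0 and in the same direction in both sets, while RPS19, RPS26 and RPS30 lie on opposite sides of 0.

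By limma 1 of 23 pairs (4.35%), RPS29, was called for a trend or wave in the difference, against 23.3% of all genes called for a trend or wave of their own, with an adjusted p of 0.00802, and RPS29A gained 0.39 ± 0.09 (SE) on RPS29B over the course. The call was lost in array set 1 alone and on leaving out most single time points, while the trend stayed between 0.29 and 0.49. RPS0, RPS22 and RPS28 had trends of similar or larger size, -0.997, -0.43 and -0.39, that did not pass. Over time the 2 copies of a pair were alike: the median r between copies was 0.886 over 25 time points and 0.676 over 22. For comparison, the r of a gene with the median of the other members had a median of 0.793 over 25 and 0.726 over 22. A likeness particular to pairs is not shown by these values. Besides RPS28, low values were those of RPS7 at 0.31 over 22 time points and RPS16 at -0.13 over 25. At 25, 40 and 55 min, copies departed in the same direction in 19 of 23 pairs, in a family where 38 of 55 genes departed upwards. The exceptions were RPS6, RPS9, RPS16 and RPS28, though RPS6B and RPS9A lay close to 0, at 0.017 and -0.041. For RPS16 the departures were -0.08 for copy A, which has no departure in array set 1, and 0.89 for copy B. In array set 2 copy A departed by -0.39, 0.012 and 0.36 at 25, 40 and 55 min. The genes RPS14B and RPS22A lie next to each other in the RefSeq annotation (assembly R64), and their mean departures were -0.18 and 1.27.

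Among other genes, those of the large subunit were best represented among the genes most like the median of the small subunit genes. Of the 100 non-members with the highest r over 25 time points, 35 belong to the large subunit, which is 43.2% of its 81 genes, and without the 3 time points 32 do (39.5%). Of the translation initiation factors 2 of 20 were among the 100, and of 51 factors of 40S assembly, 34 proteins of the mitochondrial small subunit and 18 regulators of ribosomal protein genes none. These correlations share arrays and reference and carry no p. The median r was 0.859 for the large subunit, 0.617 for the mitochondrial small subunit, 0.236 for the assembly factors, -0.457 for the regulators and -0.506 for the initiation factors. Without the 3 time points the medians were 0.717, 0.247, 0.170, -0.167 and 0.184.

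Over 25 time points the same tests gave few calls in the large subunit and more among the assembly factors. Without 25, 40 and 55 min, 23 of 81 large subunit genes and 36 of 51 assembly factors were called periodic, against 25.2% of all genes. The calls below are those over 25 time points. Of 81 large subunit genes, RPL1B, RPL16A and RPL16B were called periodic, RPL16A and RPL18B rising, and RPP2A, for an acidic stalk protein, below the reference with a mean of -1.50 ± 0.12 (SE). Of 51 assembly factors, which process the 18S rRNA precursor and load these same proteins, 22 were periodic and 10 lay below the reference, with a median mean of -0.56. For all genes the shares were 13.3% and 3.6%. IFH1, which binds Fhl1 at ribosomal protein promoters, had a mean of -1.18 ± 0.05 (SE, limma treat adjusted p = 6.09e-10) and a wave of 0.63 ± 0.15 (SE, adjusted p = 0.00712). TOD6, a repressor of ribosome assembly genes, had a mean of -1.09 ± 0.06 (SE). The other regulators called were TOR2, periodic and rising, and FHL1, rising by 0.85 ± 0.16 (SE).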

How the data were processed

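The table holds 6217 rows and 50 array columns; 12 rows that name no open reading frame were left out, and 5704 open reading frames took their symbol from RefSeq assembly R64 by locus tag. The authors deposited log10 ratios, to judge by limits at exactly -2 and 2; no source used here states the base, the direction, the normalization or how spots were filtered. Arrays held 5528 to 6110 values and 4.34% were missing. No intensities were used, so the number of arrays limits the precision. The 171 values on the lower and 41 on the upper limit, none from a small subunit gene, were set to missing. Values were converted to log2, centred on each array's median (deposited medians -0.000700 to 0.0478 log10) and averaged over the 2 arrays of a time point. Between these arrays Pearson's r across genes was 0.521 to 0.839. Across any 2 arrays it was 0.0919 to 0.931. The title of an array says 75 min where its source name says 0 min, and it was counted as 75 min; a protocol gives a sampling interval that differs from the design text.

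Fits used limma 3.58.1 in R 4.3.3 on 6063 genes with 20 or more time points, with linear, cosine and sine terms, Benjamini-Hochberg adjustment over all genes and a threshold of 0.01. The p-values reflect scatter between time points, and no label shows separate cultures. The reference counts as 1 control sample and dyes were not exchanged, so a dye bias is part of each mean ratio. Fits without 25, 40 and 55 min kept the period of 71 min (72 min by the markers without these times) and tested 6065 genes. Drawing was done in matplotlib 3.10.9 under Python 3.11.15; the fits were tested on simulated data.

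The members, gene lists and named genes were chosen with earlier results of these data known. Named were the single-copy genes, members behind counts of 6 or fewer and otherwise the 6 with the largest effect, the 4 highest and lowest means, the 4 least like the others, the pairs with the 6 largest and 3 smallest mean differences, the 4 largest trends and the 3 lowest correlations; other genes only for counts of 3 or fewer. Further names were chosen after their values were seen. Some members are counted but not reported here by name or plotted by gene. No sequence is printed and no promoter was searched.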

Additional observations from a re-analysis of the deposited data

How the results depend on the processing

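The periodic count of 3 was 7 with arrays scaled to the same spread. Without 25, 40 and 55 min it was 16 (13 in a fit of array set 1 alone, 9 of them among the 16). It was 5 without the array of disagreeing labels, 1 with a period 5 min longer and 11 at an adjusted p under 0.05. It was 1 with array set (the replicate number of an array) as a factor and time point as a random block (the replicate block). With title date as a factor it was 0, as it was within each of the 4 title dates tested. Title dates 2 and 4 cover 60 to 115 min and 20 to 55 min, less than 1 period of 71 min. With 12 and 8 arrays, their counts of 0 cannot decide whether a gene is periodic. Leaving out an array set or a time point gave 0 to 4 periodic members. For most settings in this section the share of all genes called is not given. A change in a count is therefore not shown to be particular to the members. Rising members numbered 3 after scaling, 2 without the 3 time points (5 in array set 2 alone, RPS13 and RPS14B among them), 4 at 0.05, 2 with the replicate block and 0 to 3 on leaving out; falling members numbered 0 to 1 (RPS7A in array set 2). RPS28B was lost, leaving 0 above the reference, within title dates 4 and 5, against a fold change of 2, and in array set 2 with or without the 3 time points, a range of 0 to 1 on leaving out. Against no change 35 of 55 members lay above (33.3% of all genes) and 4 below (33.4%). Pairs differing in mean numbered 6 and 0 within title dates 1 and 4, and 7 to 11 on leaving out. Pairs differing over time numbered 2 after scaling and at 0.05, 0 with a period 5 min shorter, with the replicate block, with title date as a factor and within title dates, and 0 to 2 on leaving out. With title date as a factor and within title dates, the pair counts over time have the same limit as the periodic counts.

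The sign of a pair's mean difference turned for RPS19A-RPS19B (0.076 in array set 2, 0.085 there without the 3 time points, 0.056 and 0.086 in title dates 4 and 5; -0.28 in array set 1), RPS22A-RPS22B (-0.036 in array set 2 without the 3 time points, -0.11 in title date 5), RPS14A-RPS14B (0.039 in title date 4) and RPS29A-RPS29B (0.052 and 0.0014 in title dates 2 and 5). The trend of RPS29A-RPS29B turned to -0.17 and -4.95 within title dates 2 and 4, which hold 12 and 8 arrays. The cause was not tested. The release counts stayed at 0 under every alternative run.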
